A study of Mus musculus with 10 samples.

Results

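A set of 10 genes of fibroblast growth factor (FGF) signalling and its Ras-MAPK feedback were followed here in 10 RNA-seq libraries of mouse 8-cell embryos. They are the ligand gene Fgf4, the receptor genes Fgfr1 and Fgfr2, the adaptor gene Grb7, and the feedback genes Il17rd, Spry2, Spry4, Spred1, Spred2 and Dusp16. The 10 were taken by symbol from 24421 genes in the deposited tables, and all 10 were found. They were chosen by a rule that used differences between these same libraries, so their differences are given below as a description. Where a call from the fit across all genes is counted for them, it is no independent test. The study asked how expression at the 8-cell stage changes when the transcription factor Tfap2c is interfered with. All embryos were of BDF1 genotype, a hybrid laboratory mouse, and 5 groups of 2 libraries were made from them. The groups were controls (Ctrl), a Klf5 knockdown (siKlf5), a Tfap2c knockdown (siTfap2c), and 2 knockouts of Tfap2c motifs labelled Arpc1bE_CdxE1_KO and CdxE2_KO. Klf5 and Tfap2c are transcription factors of the early embryo, and the labels describe the knockouts no further than their names. Whole embryos were lysed, so each library holds the RNA of all blastomeres, and fewer cells of a kind and less RNA per cell cannot be told apart.

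FGF ligands bind receptor tyrosine kinases on the cell surface, and adaptors then pass the signal to Ras and the kinase chain that ends in ERK. In the early mouse embryo Fgf4 is the main ligand of the inner cells, and Fgfr1 and Fgfr2 receive it, a signal known for separating primitive endoderm from epiblast and for sustaining trophoblast. The pathway limits itself: Sprouty and Spred proteins act on the steps around Ras and Raf, Il17rd (also called Sef) holds back FGF signalling at membranes, and dual-specificity phosphatases such as Dusp16 remove phosphate from MAP kinases.

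Promoters of 4 of the genes are shown first, because the proteins knocked down bind DNA: Spred1 and Spry2, which held AP-2 matches, Dusp16, which held the most Krueppel-like matches, and Fgfr2, which held neither. The RefSeq promoter table of build GRCm38.p6 held windows for 7 of the 10 genes: Fgf4, Fgfr2, Il17rd, Spry2, Spred1, Spred2 and Dusp16. Each window ran from 250 bases before the transcription start to 50 bases after it. The AP-2 palindrome GCCNNNGGC, the kind of site Tfap2c is known to bind, and the Krueppel-like pattern CCNCNCCC were searched on both strands. The 250 bases before the start are printed 5′ to 3′ on the gene's strand, with motif matches in capitals. Spred1 lies on the plus strand at chr2:117120821-117121070, and Spry2 on the minus strand at chr14:105896820-105897069. Dusp16 lies on the minus strand at chr6:134792629-134792878, before a start that is inside the outer span of the gene, and Fgfr2 on the minus strand at chr7:130266809-130267058.
Spred1: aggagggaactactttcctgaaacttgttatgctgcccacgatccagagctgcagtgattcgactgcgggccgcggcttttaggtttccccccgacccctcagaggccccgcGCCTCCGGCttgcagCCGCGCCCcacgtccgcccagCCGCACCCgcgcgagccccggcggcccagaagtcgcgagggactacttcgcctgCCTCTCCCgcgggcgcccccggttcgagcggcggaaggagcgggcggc
Spry2: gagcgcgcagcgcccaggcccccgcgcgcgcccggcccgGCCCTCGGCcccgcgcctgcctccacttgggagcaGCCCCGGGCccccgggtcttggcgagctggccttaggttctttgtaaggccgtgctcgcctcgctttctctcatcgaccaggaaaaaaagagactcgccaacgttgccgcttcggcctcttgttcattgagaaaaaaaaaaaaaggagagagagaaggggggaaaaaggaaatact
Dusp16: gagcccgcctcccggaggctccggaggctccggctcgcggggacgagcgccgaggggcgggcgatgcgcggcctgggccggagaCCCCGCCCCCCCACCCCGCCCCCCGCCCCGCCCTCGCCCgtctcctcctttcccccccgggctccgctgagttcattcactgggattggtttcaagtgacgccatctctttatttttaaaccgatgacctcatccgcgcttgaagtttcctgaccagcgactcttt
Fgfr2: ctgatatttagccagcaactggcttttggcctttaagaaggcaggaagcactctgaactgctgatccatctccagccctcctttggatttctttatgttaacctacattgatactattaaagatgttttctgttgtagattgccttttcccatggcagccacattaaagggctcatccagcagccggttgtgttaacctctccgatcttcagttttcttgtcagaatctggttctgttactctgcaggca

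Spry2 held 2 matches to the AP-2 palindrome, at -211 to -203 and at -176 to -168 from the start, and Spred1 held 1, at -138 to -130. These were 2 of the 7 windows, against 16.59% of 32851 windows in the whole RefSeq table. The Krueppel-like pattern was in 5 of the 7 windows, against 49.469% of all windows. Dusp16 held 8 overlapping matches to it, all in 1 run of C-rich sequence between -166 and -128. Spred1 held 4, of which 1 lay after the start, at 14 to 21, outside the printed bases. Fgf4, Il17rd and Spred2 held 1 each. No letters of either pattern were found in the Fgfr2 window, and no AP-2 match overlapped a Krueppel-like match in the printed Spred1 sequence. GC content was 72.3% in the Spred1 window, 68.7% in that of Dusp16, 62.7% in that of Spry2 and 43.7% in that of Fgfr2, around a median of 52.7% over all windows.

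All levels below are deposited log2(abundance + 1) values, and differences are on that scale. The kind of abundance is not given in the sources used here, so levels were compared between groups for 1 gene at a time. Summed linear values ranged from 388454 to 395401 units among the 6 control and knockdown libraries, and from 478651 to 498621 among the 4 motif knockout libraries. In their own knockdowns Klf5 was at 4.27 on average against 7.16 in control, and Tfap2c at 4.01 against 6.61 (limma adjusted p = 1.65e-06 and 2.41e-07). Klf5 was also lower in the Tfap2c knockdown, at a mean of 5.38 (adjusted p = 4.74e-06). Of the genes that the motif knockouts are named for, Arpc1b was at 3.29 in Arpc1bE_CdxE1_KO against 4.59 in control, and Cdx2 at 1.15 in Arpc1bE_CdxE1_KO and 0.87 in CdxE2_KO against 2.41. Of 10 markers of the 8-cell embryo 9 passed the filter, and their summed level was 912 to 942 units in control, 720 to 777 in the Klf5 knockdown and 437 to 443 in the Tfap2c knockdown. In the motif knockouts it was 1110 to 1306 (Arpc1bE_CdxE1_KO) and 1044 to 1097 (CdxE2_KO). That list holds Klf5 and Tfap2c themselves, and its part in the results below was not tested. None of the markers of cumulus and granulosa cells (0 of 10), fibroblasts (0 of 6) or blood cells (0 of 4) passed the filter. All 10 FGF and feedback genes passed it, and of their 100 values none was listed at 0. Groups of 2 libraries often do not overlap. Of all genes tested, 55.3% did not overlap between Klf5 knockdown and control, and 65.8% between Tfap2c knockdown and control. Between the knockdowns the share was 66.9%, and against control it was 67.4% in Arpc1bE_CdxE1_KO and 73.8% in CdxE2_KO. Ranges below are therefore given as a description.

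**Figure D1:**
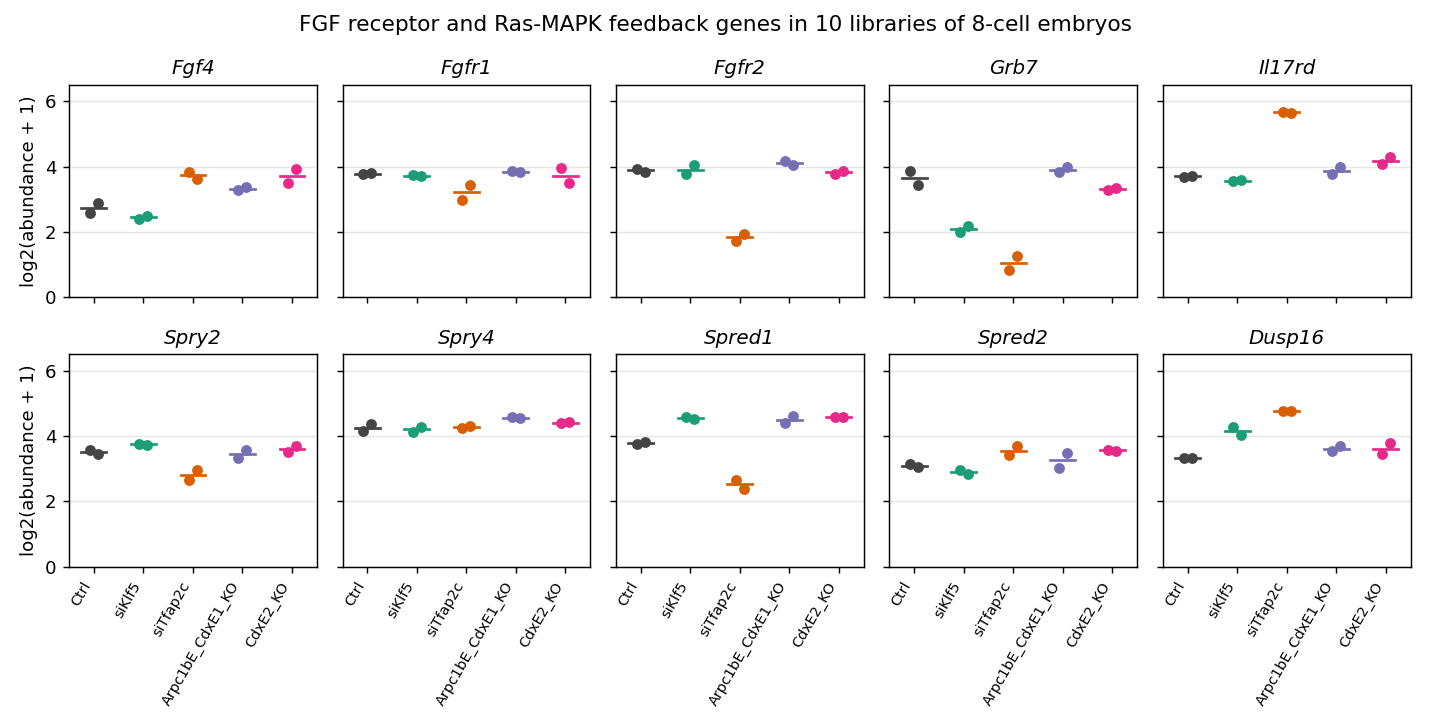
Levels of the 10 genes as deposited log2(abundance + 1) values (vertical axis) in the 5 groups (horizontal axis); each point is 1 library and each line the mean of 2. Fgfr2, Grb7 and Spred1 were lowest and Il17rd and Dusp16 highest in siTfap2c, while Spry4 stayed between 4.12 and 4.58 in all 10 libraries.

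Fgf4 encodes the ligand. Its levels were 2.59 and 2.89 in control, 2.41 and 2.50 after Klf5 knockdown, and 3.83 and 3.63 after Tfap2c knockdown. The motif knockouts stood at 3.29 and 3.36 (Arpc1bE_CdxE1_KO) and at 3.51 and 3.93 (CdxE2_KO). The Tfap2c knockdown libraries were thus above both control libraries, and their range overlapped that of CdxE2_KO. The difference from control was 0.99 ± 0.16 (SE, n = 2 and 2; 95% interval 0.64 to 1.35) in the Tfap2c knockdown, a 2.16-fold higher linear abundance. In the Klf5 knockdown it was -0.29 ± 0.16, with an interval of -0.64 to 0.07.

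The receptors Fgfr1 and Fgfr2 are close relatives that both bind FGF4. Fgfr2 was at 3.92 and 3.85 in control, at 3.76 and 4.04 after Klf5 knockdown, and at 1.72 and 1.95 after Tfap2c knockdown. In the motif knockouts it was at 4.17 and 4.06 (Arpc1bE_CdxE1_KO) and at 3.78 and 3.86 (CdxE2_KO). The Tfap2c knockdown stood apart below the other 8 libraries, while control, Klf5 knockdown and CdxE2_KO overlapped. Its difference from control was -2.05 ± 0.13 (interval -2.33 to -1.77), a 5.34-fold lower linear abundance and the difference ranked 49 from the lowest among 11195 genes. The Klf5 knockdown differed from control by 0.02 ± 0.13 (-0.27 to 0.30).

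Fgfr1 varied less. It was at 3.77 and 3.80 in control, 3.73 and 3.72 after Klf5 knockdown, 2.99 and 3.43 after Tfap2c knockdown, 3.85 in both libraries of Arpc1bE_CdxE1_KO, and 3.95 and 3.50 in CdxE2_KO. Both Tfap2c knockdown libraries lay below the other 8. The difference from control was -0.57 ± 0.17 (-0.95 to -0.20). It was -0.36 without siTfap2c replicate 1 and -0.79 without siTfap2c replicate 2.

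Grb7, an adaptor that binds activated receptor tyrosine kinases, was low in both knockdowns. Its levels were 3.86 and 3.45 in control, 2.01 and 2.18 after Klf5 knockdown, and 0.82 and 1.27 after Tfap2c knockdown. It was at 3.83 and 3.99 in Arpc1bE_CdxE1_KO and at 3.30 and 3.35 in CdxE2_KO. The groups fell in the order Tfap2c knockdown, Klf5 knockdown, CdxE2_KO and then control with Arpc1bE_CdxE1_KO, and only the last pair overlapped. Differences from control were -1.56 ± 0.18 (-1.96 to -1.16) in the Klf5 knockdown and -2.61 ± 0.18 (-3.01 to -2.21) in the Tfap2c knockdown. In linear abundance these were 3.57-fold and 10.75-fold lower. They ranked 16 and 24 from the lowest among 11195 genes. The value of 0.82 was the only 1 of the 100 below 1 linear unit, and an added constant of 0.1 in place of 1 gave -1.79 and -3.35.

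In GRCm38.p6, Grb7 spans 98446834 to 98455373 of chromosome 11 and lies inside the RefSeq model of Mien1 (98437708 to 98458230). Fgfr1 overlaps the models of the long non-coding RNAs Gm31288 and Gm16159, and Dusp16 those of Gm36328 and 1700055D16Rik. Reads shared by such overlapping genes could be counted to either, and whether strand was used is not given in the sources used here. The gene of the receptor kinase Erbb2 ends 9118 bases from Grb7. Erbb2 was at 2.53 and 2.46 in control, at 0.82 and 0.91 after Klf5 knockdown, and at 1.67 and 2.02 after Tfap2c knockdown. It fell in both (limma differences of -1.63, adjusted p = 0.000647, and -0.65, adjusted p = 0.00919). In Erbb2 the Klf5 knockdown was the lowest group, whereas in Grb7 the Tfap2c knockdown was.

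Il17rd encodes a membrane protein that damps FGF receptor signalling. It was at 3.69 and 3.71 in control, 3.55 and 3.59 after Klf5 knockdown, and 5.67 and 5.65 after Tfap2c knockdown. The motif knockouts stood at 3.78 and 3.98 (Arpc1bE_CdxE1_KO) and at 4.07 and 4.28 (CdxE2_KO). No ranges of neighbouring groups overlapped, and the Tfap2c knockdown lay 1.48 log2 units above the next group. Its difference from control was 1.96 ± 0.10 (1.73 to 2.19), a 4.13-fold higher linear abundance that ranked 7 from the highest among 11195 genes. In the Klf5 knockdown the difference was -0.13 ± 0.10 (-0.36 to 0.10).

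The Sprouty genes encode inducible inhibitors of receptor tyrosine kinase signalling. Spry2 was at 3.57 and 3.46 in control, 3.77 and 3.71 after Klf5 knockdown, and 2.66 and 2.95 after Tfap2c knockdown. The motif knockouts were at 3.34 and 3.59 and at 3.50 and 3.70, overlapping control. The Tfap2c knockdown lay below the other 8 libraries, with a difference from control of -0.71 ± 0.14 (-1.02 to -0.40). The Klf5 knockdown stood at a mean above control, by 0.23 ± 0.14 (-0.08 to 0.54). Spry4 was at 4.15 and 4.37 in control, 4.12 and 4.29 after Klf5 knockdown, 4.25 and 4.32 after Tfap2c knockdown, 4.58 and 4.54 in Arpc1bE_CdxE1_KO, and 4.39 and 4.44 in CdxE2_KO. Control and both knockdowns overlapped. Differences from control were -0.06 ± 0.10 (-0.29 to 0.17) and 0.03 ± 0.10 (-0.20 to 0.26) in the Klf5 and Tfap2c knockdowns, the narrowest span of group means among the 10 genes, 0.36 log2 units.

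Spred1 and Spred2 encode Sprouty-related proteins that bring neurofibromin to Ras at the membrane. Spred1 was at 3.74 and 3.82 in control, 4.60 and 4.52 after Klf5 knockdown, and 2.67 and 2.37 after Tfap2c knockdown. It was at 4.39 and 4.60 in Arpc1bE_CdxE1_KO and at 4.59 in both libraries of CdxE2_KO. The Tfap2c knockdown was the lowest group and control the next, while the Klf5 knockdown and the motif knockouts overlapped at the top. Spred1 was therefore on opposite sides of control in the knockdowns: 0.77 ± 0.12 (0.50 to 1.04) above it after Klf5 knockdown and -1.26 ± 0.12 (-1.53 to -0.99) after Tfap2c knockdown. The knockdowns themselves differed by -2.04 ± 0.12 (-2.31 to -1.77), a 4.73-fold lower linear abundance after Tfap2c knockdown.

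Spred2 was at 3.13 and 3.07 in control, 2.95 and 2.84 after Klf5 knockdown, 3.42 and 3.68 after Tfap2c knockdown, 3.03 and 3.49 in Arpc1bE_CdxE1_KO, and 3.56 in both libraries of CdxE2_KO. Its differences from control were -0.20 ± 0.16 (-0.55 to 0.15) and 0.46 ± 0.16 (0.10 to 0.81), of the opposite sign to those of Spred1 in each knockdown. The libraries of Arpc1bE_CdxE1_KO spanned control and reached the range of the Tfap2c knockdown.

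Dusp16 encodes a dual-specificity phosphatase that acts mainly on the stress-activated kinases JNK and p38. It was at 3.32 in both control libraries, 4.27 and 4.04 after Klf5 knockdown, and 4.76 and 4.77 after Tfap2c knockdown. The motif knockouts were at 3.53 and 3.70 and at 3.44 and 3.78, overlapping each other. Dusp16 stood above control in both knockdowns, by 0.83 ± 0.13 (0.54 to 1.13) and by 1.44 ± 0.13 (1.15 to 1.74). These were 1.88-fold and 2.91-fold higher in linear abundance and ranked 66 and 36 from the highest. The knockdowns did not overlap, the Tfap2c knockdown being 0.61 ± 0.13 higher.

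**Figure D2:**
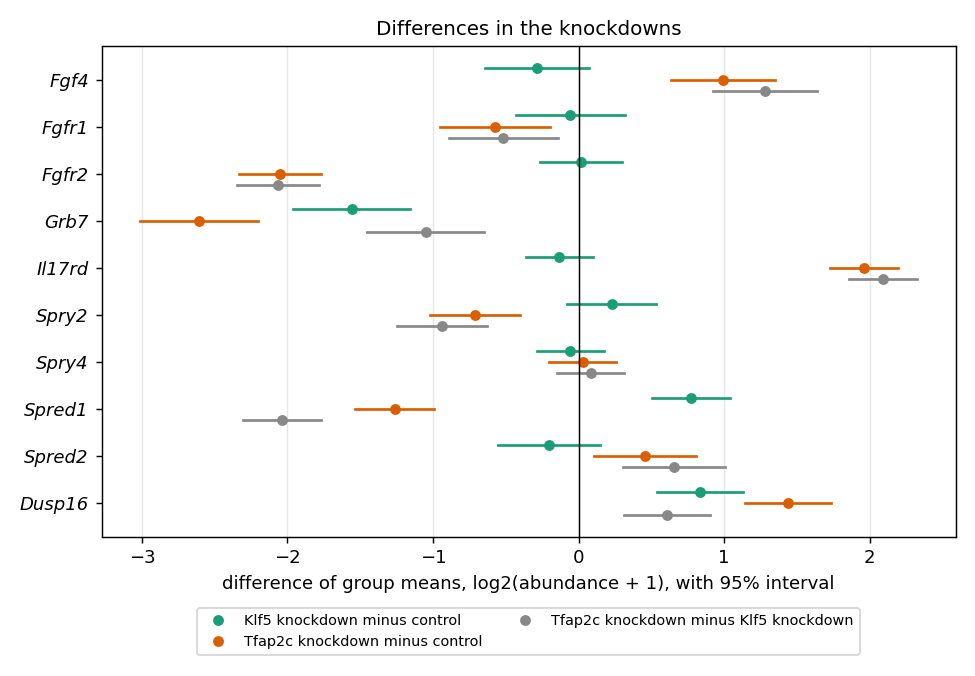
Differences of group means in log2(abundance + 1) units (horizontal axis) for the 10 genes (vertical axis), with 95% intervals from the limma fit. Grb7 lies left of 0 and Dusp16 right of 0 in both knockdowns, Spred1 lies at 0.77 after Klf5 and -1.26 after Tfap2c knockdown, and Spry4 lies near 0 in all 3 comparisons.

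At a limma adjusted p under 0.05 over all genes, 2 of the 10 (Spred1, Dusp16) were called higher and 1 (Grb7) lower after Klf5 knockdown, where 2.25% and 5.27% of all genes tested were called. After Tfap2c knockdown 3 (Fgf4, Il17rd, Dusp16) were called higher and 5 (Fgfr1, Fgfr2, Grb7, Spry2, Spred1) lower, against 12.6% and 11.9% of all genes. Because the genes were selected on these differences, nothing is read from the counts or from the medians that follow. The median absolute difference over the 10 was 0.21 after Klf5 and 1.13 after Tfap2c knockdown, beside 0.17 and 0.23 over all genes tested. Knockdown and control libraries were compared across deposited tables, which may have been scaled apart. Of the calls, that of Fgfr1 after Tfap2c knockdown held in 1 of 4 fits that left out 1 library, without siTfap2c replicate 2. That of Dusp16 after Klf5 knockdown likewise held in 1 of 4, without siKlf5 replicate 2, and that of Spred1 was lost without Ctrl replicate 1 (difference 0.74). The call of Grb7 after Klf5 knockdown and the other 7 calls after Tfap2c knockdown held in 4 of 4.

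The knockdowns were also compared with each other, with no control in between. In the Tfap2c knockdown 4 of the 10 genes (Fgf4, Il17rd, Spred2, Dusp16) were called higher than in the Klf5 knockdown and 5 lower (Fgfr1, Fgfr2, Grb7, Spry2, Spred1), beside 15.1% and 10.5% of all genes. Il17rd differed most upward, by 2.09 ± 0.10 (1.86 to 2.32), and Fgfr2 and Spred1 most downward, by -2.07 ± 0.13 (-2.35 to -1.78) and by the -2.04 given above. Fgf4 was 1.28 ± 0.16 higher (0.92 to 1.64). Grb7 was 1.05 log2 units below its level in the Klf5 knockdown (-1.05 ± 0.18, -1.45 to -0.65), though it was low in both. Spry4 differed by 0.08 ± 0.10 (-0.14 to 0.31). The calls of Fgfr1, Spred2 and Dusp16 held in 1, 2 and 2 of the 4 fits that left out 1 library.

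Pairs of related genes were set against each other within each library, as log2 ratios of their linear abundances. The ratio is read only across groups, since it depends on how abundance was scaled to gene length. Fgfr2 over Fgfr1 was 0.16 and 0.06 in control, 0.03 and 0.34 after Klf5 knockdown, and -1.60 and -1.77 after Tfap2c knockdown. The balance between Fgfr1 and Fgfr2 thus moved toward Fgfr1 in both Tfap2c knockdown libraries, although Fgfr1 was itself lower there. The receptor genes Fgfr3 and Fgfr4 are not in this ratio. They were 0.36 and 0.57 higher than control after Tfap2c knockdown (limma adjusted p = 0.064 and 0.0166). Spred1 over Spred2 was 0.68 and 0.83 in control, 1.78 and 1.83 after Klf5 knockdown, and -0.86 and -1.51 after Tfap2c knockdown. In this pair the knockdowns lay on either side of control, without overlap. Spry2 over Spry4 was -0.62 and -0.97 in control, -0.37 and -0.61 after Klf5 knockdown, and -1.77 and -1.49 after Tfap2c knockdown. Fgf4 over Fgfr2 was -1.49 and -1.07 in control, -1.54 and -1.73 after Klf5 knockdown, and 2.53 and 1.998 after Tfap2c knockdown. In the ratio of ligand to receptor both Tfap2c knockdown libraries were above the other 8. CdxE2_KO, at -0.29 and 0.07, lay between them and the rest.

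**Figure D3:**
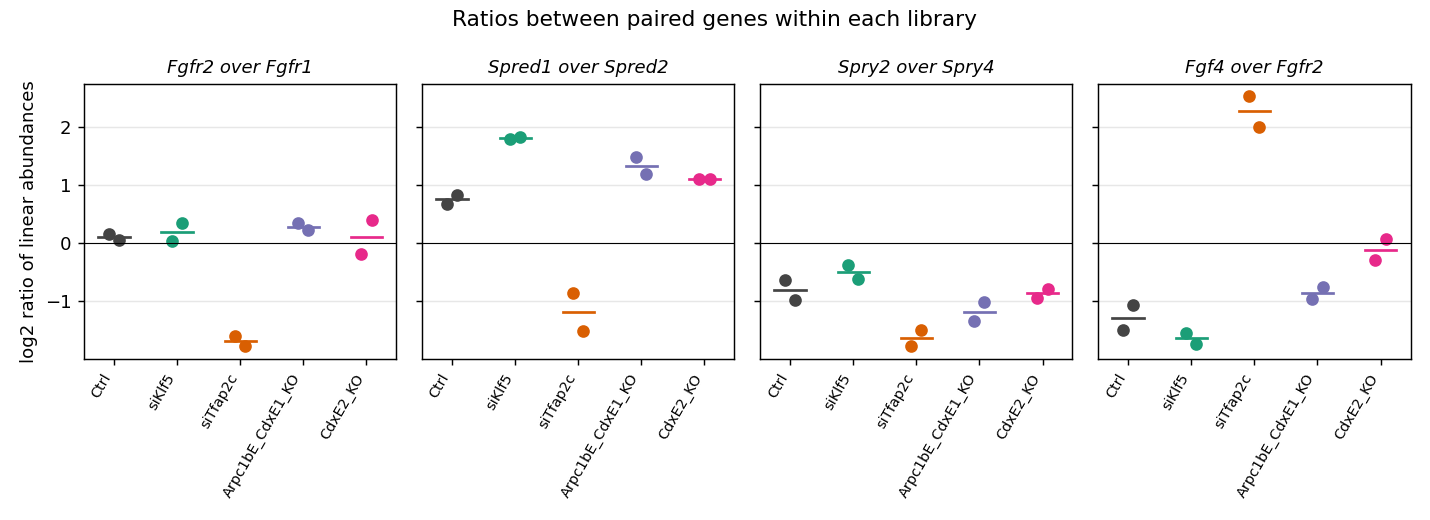
Log2 ratios of linear abundances of 4 gene pairs (vertical axis) in the 5 groups (horizontal axis); each point is 1 library and each line the mean of 2. The siTfap2c libraries are lowest for Fgfr2 over Fgfr1, Spred1 over Spred2 and Spry2 over Spry4, and highest for Fgf4 over Fgfr2.

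The motif knockouts and control stand in 1 deposited table and were compared within it. Over all genes tested the median difference from control was 0.27 log2 units in Arpc1bE_CdxE1_KO and 0.29 in CdxE2_KO, and the sums of linear values were higher too, as given above. The genes are therefore given as deposited and after each library was centred on its median. Calls leaned the same way: 23.2% of genes tested were called higher and 0.815% lower in Arpc1bE_CdxE1_KO, and 28.5% and 1.44% in CdxE2_KO. Of all calls, 96.6% and 95.2% were in the higher direction as deposited, 55.5% and 42.3% after centring, and 58.5% and 58.3% after scaling to equal sums. As deposited, 2 of the 10 genes were called higher in Arpc1bE_CdxE1_KO (Fgf4, Spred1) and 3 in CdxE2_KO (Fgf4, Il17rd, Spred1), with 0 called lower. After centring 0 were called in either, while at equal sums 1 was called higher in CdxE2_KO.

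Fgf4 and Spred1 were the genes with centred means above control in both motif knockouts; Il17rd and Spred2 were above it in CdxE2_KO alone, by 0.14 and 0.13. Fgf4 differed by 0.98 ± 0.17 in CdxE2_KO as deposited and by 0.65 (0.24 to 1.06) after centring. In Arpc1bE_CdxE1_KO it differed by 0.59 ± 0.17 and by 0.27 (-0.15 to 0.68). Spred1 differed by 0.71 ± 0.11 in Arpc1bE_CdxE1_KO and 0.81 ± 0.11 in CdxE2_KO as deposited, and by 0.39 (0.12 to 0.66) and 0.48 (0.20 to 0.75) after centring. The deposited calls of Fgf4 in Arpc1bE_CdxE1_KO and of Il17rd in CdxE2_KO held in 0 of 4 fits that left out 1 library. Those of Spred1 in Arpc1bE_CdxE1_KO and Fgf4 in CdxE2_KO held in 2 of 4, and that of Spred1 in CdxE2_KO in 4 of 4.

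The other genes lay near or below the shift of all genes. Grb7 differed from control by 0.26 ± 0.15 in Arpc1bE_CdxE1_KO and -0.33 ± 0.15 in CdxE2_KO as deposited, and by -0.06 (-0.43 to 0.30) and -0.66 (-1.02 to -0.30) after centring. Fgfr2 in CdxE2_KO went from -0.06 to -0.39 (-0.63 to -0.15), and Fgfr1 from -0.05 to -0.39 (-0.75 to -0.02). Spry2 in Arpc1bE_CdxE1_KO was at -0.05 as deposited and -0.37 (-0.71 to -0.04) centred. Spry4 stood at 0.30 and 0.15 as deposited in Arpc1bE_CdxE1_KO and CdxE2_KO, and at -0.02 and -0.18 centred. Dusp16, at 0.29 in both as deposited, was at -0.03 and -0.04. None of these was called after centring. Over the 10 genes the median deposited difference was 0.25 in Arpc1bE_CdxE1_KO and 0.22 in CdxE2_KO, beside the 0.27 and 0.29 of all genes.

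**Figure D4:**
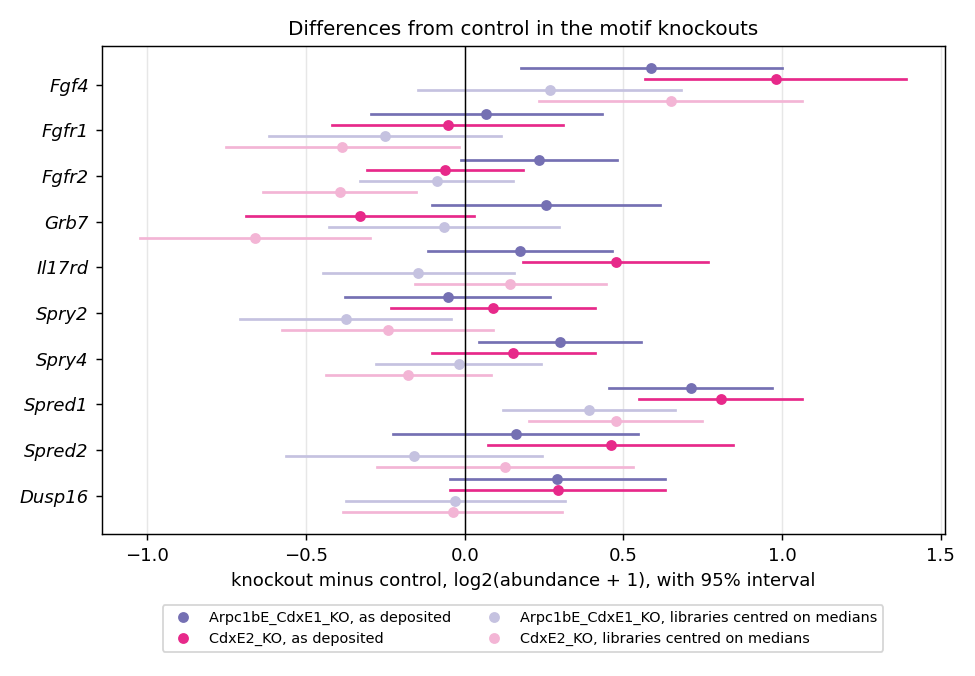
Motif knockout minus control in log2(abundance + 1) units (horizontal axis) for the 10 genes (vertical axis), as deposited in dark and after centring each library on its median in pale colours, with 95% intervals. Centring moves every gene left; Spred1 keeps intervals above 0 in both knockouts and Fgf4 in CdxE2_KO.

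The rest of the pathway was read from a list of 114 other FGF and Ras-MAPK genes in 6 roles, of which 75 were tested in the fit of 10 libraries. These genes were tested with limma, and adjusted p-values are over all genes tested. After Tfap2c knockdown 15 of the 75 rose and 15 fell (20.0% each, beside 12.6% and 11.9% of all genes). Fgf5 is counted among those that rose, with a limit on how it passed the filter given below. After Klf5 knockdown 2 rose and 7 fell (2.67% and 9.33%, beside 2.25% and 5.27%). The median difference was -0.01 and -0.02, beside 0.04 and -0.02 over all genes. The list, like the 10 genes, was written with earlier results of these data known. Counts by role below stand beside the same shares of all genes.

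Among ligands, 2 of 7 tested rose and 1 fell after Tfap2c knockdown. Fgf5, a ligand of the later epiblast, was at 0.41 and 0.72 in control and at 1.71 and 1.65 in the Tfap2c knockdown (limma difference 1.11). Its linear value reached 1 unit only in these Tfap2c knockdown libraries and in Arpc1bE_CdxE1_KO replicate 1. Fgf5 thus passed the filter only through the group where it was high, so its call is no independent test. Fgf3, whose gene lies 18038 bases from Fgf4 on chromosome 7, was at 1.61 and 1.92 in control and at 2.56 in both Tfap2c knockdown libraries (0.79, adjusted p = 0.00524). Fgf4 and Fgf3 were thus both higher there. Other tested genes near Fgf4 were Ccnd1, Tpcn2 and Fadd. They differed by -0.07, -0.03 and -0.17 after Tfap2c knockdown and did not pass (limma adjusted p = 0.862, 0.937 and 0.632). Fgf13, an intracellular FGF family protein that is not secreted, fell by 0.70 (adjusted p = 0.0334) and lost its call in each of the 4 fits without 1 library. The linear values of Fgf13 were 0.64 and 0.68 in control and 0 and 0.04 after Tfap2c knockdown. Fgf13 passed the filter only through motif knockout libraries, which are not in this comparison. None of the 7 ligands passed the test after Klf5 knockdown.

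Of 12 receptors and co-receptors tested, 5 rose and 2 fell after Tfap2c knockdown. Klb, the co-receptor beta-Klotho, was at 2.25 and 2.07 in control, 2.28 and 2.03 after Klf5 knockdown, and 3.48 and 3.64 after Tfap2c knockdown (limma difference 1.40, adjusted p = 9.38e-05). Fgfrl1, an FGF-binding receptor without a kinase domain, was at 1.22 and 1.49 in control and at 2.32 and 2.44 there (1.03, adjusted p = 0.00242). The heparan sulphate proteoglycan Gpc1 rose by 0.87 (adjusted p = 0.00375). These 3 rose in the libraries in which Fgfr2 and Fgfr1 were lowest. After Klf5 knockdown 0 of the 12 rose and 2 fell, Erbb2 as above and Erbb3, its dimer partner, by 0.56 (adjusted p = 0.0287).

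Of 14 adaptors tested, 3 rose and 2 fell after Tfap2c knockdown. Grb14, of the same adaptor family as Grb7, fell: it was at 1.91 and 2.06 in control and at 0.52 and 1.08 in the Tfap2c knockdown (limma difference -1.18, adjusted p = 0.00221). It did not pass the test after Klf5 knockdown, where it was at 1.81 and 1.77. Plcg1, the phospholipase that binds activated FGF receptors, fell by 0.92 (adjusted p = 0.00144), and the adaptor Crkl rose by 0.65 (adjusted p = 0.00118). The exchange factor Sos2, which loads Ras with GTP, was the 1 adaptor to rise after Klf5 knockdown, from 5.44 and 5.45 to 6.10 and 6.11 (0.65, adjusted p = 0.00635). Sos2 lay 0.76 lower in the Tfap2c than in the Klf5 knockdown (adjusted p = 0.00072), at 5.25 and 5.44.

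Among Ras proteins and kinases, 3 of 16 tested rose and 3 fell after Tfap2c knockdown (18.8% each, beside 12.6% and 11.9% of all genes). Their median absolute difference was 0.22, beside 0.23 over all genes tested. Rras2 fell from 2.82 and 2.64 in control to 1.40 and 1.46 (limma difference -1.30, adjusted p = 9.78e-05), and Mras from 1.75 and 1.64 to 0.32 and 0.26 (-1.40, adjusted p = 0.000311). Nras, a classical Ras gene, rose from 3.40 and 3.38 to 3.90 and 4.02 (0.57, adjusted p = 0.00217). After Klf5 knockdown Mras fell as well, to 0.75 and 0.95 (-0.84, adjusted p = 0.0173), and 0 of the 16 rose.

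Of 18 other feedback genes and inhibitors, 2 rose and 4 fell after Tfap2c knockdown. Dusp6, the ERK phosphatase whose transcript is widely used as a readout of FGF-ERK activity, was at 1.59 and 1.52 in control, 1.18 and 0.74 after Klf5 knockdown, and 0.09 and 0.08 after Tfap2c knockdown. It fell in the Tfap2c knockdown (limma difference -1.47, adjusted p = 0.00137). In CdxE2_KO it was at 3.02 and 2.41. Dusp5, an ERK phosphatase of the nucleus, rose by 0.77 (adjusted p = 0.0177), with the call held in 1 of 4 fits without 1 library. Dab2ip, a Ras GTPase-activating protein, fell after both knockdowns, by 1.02 after Tfap2c (adjusted p = 0.00234) and by 0.77 after Klf5 knockdown (adjusted p = 0.0277). Dusp10, which acts on JNK and p38, fell by 0.47 after Klf5 knockdown (adjusted p = 0.0168), where Dusp16 was 0.83 higher.

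Of 8 target genes tested, 3 fell and 0 rose after Tfap2c knockdown. Etv5, a transcription factor gene induced by FGF signalling, was at 2.56 and 2.81 in control, 2.19 and 2.0 after Klf5 knockdown, and 1.63 and 1.59 after Tfap2c knockdown. It fell in both (limma differences -0.58, adjusted p = 0.0436, and -1.07, adjusted p = 0.000757). Its call after Klf5 knockdown was lost when libraries were centred on their medians (adjusted p = 0.0622), with no filter on low values (0.095), with only the groups compared in the fit (0.0577) and in each fit without 1 library (adjusted p up to 0.233). The immediate early gene Ier2 was at 2.71 and 2.67 in control and at 1.34 and 1.79 after Tfap2c knockdown (-1.13, adjusted p = 0.00148). Myc fell by 0.80 after Tfap2c (adjusted p = 0.00455) and by 0.68 after Klf5 knockdown (adjusted p = 0.0289). Phlda1 rose by 0.43 after Klf5 knockdown (adjusted p = 0.0405). With no filter the Klf5 knockdown calls of Myc, Phlda1, Erbb3 and Dab2ip were also lost (adjusted p = 0.0784, 0.0705, 0.0656 and 0.0651). With only the groups compared in the fit, those of Myc and Phlda1 were lost (0.0556 and 0.0657). A replicate block lost those of Etv5 and Phlda1 (0.0624 and 0.0612). Fgf5, counted next among genes named after Tfap2c knockdown, carries the filter limit given above, so its held call is no independent test. Of the 18 genes named after Tfap2c knockdown, 16 held in all 4 fits that left out 1 library, the exceptions being Fgf13 and Dusp5. Of the 9 named after Klf5 knockdown only Erbb2 did, and the fits without 1 library called 1 to 3 of the 75.

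**Figure D5:**
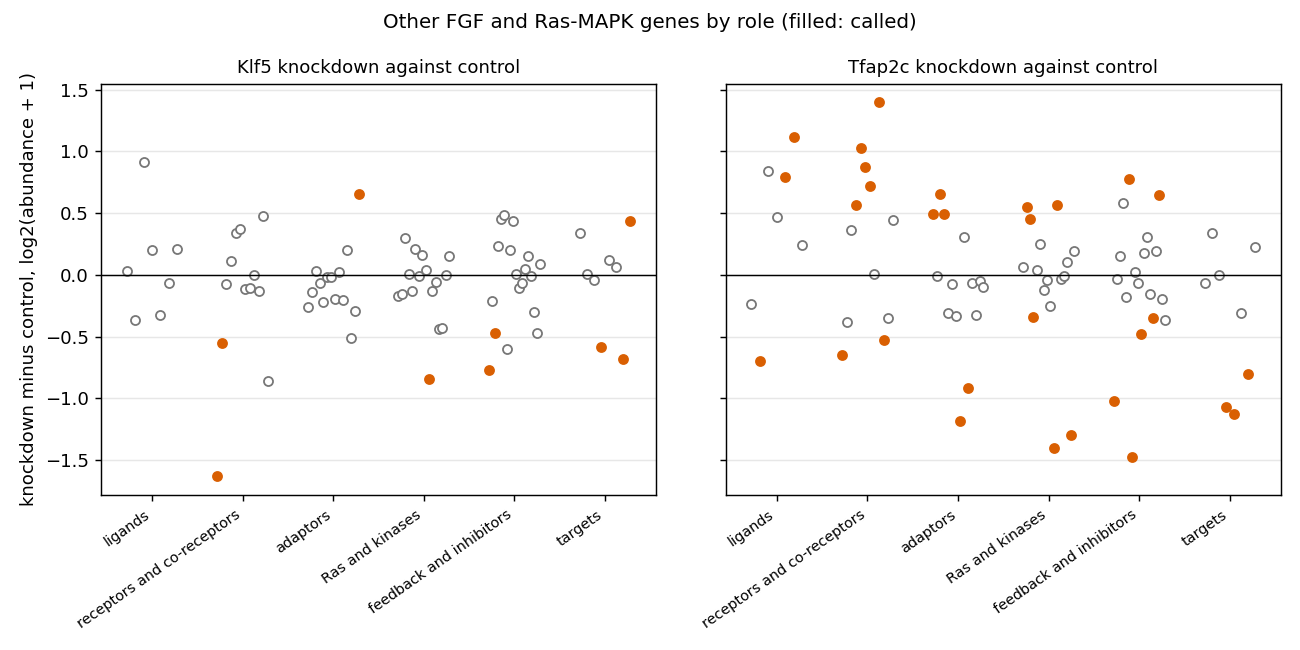
Knockdown minus control in log2(abundance + 1) units (vertical axis) for the 75 tested genes of the wider pathway list, by role (horizontal axis); each point is 1 gene, and filled points passed the limma test. More points are filled after Tfap2c (15 above and 15 below 0) than after Klf5 knockdown (2 and 7), and the filled target genes after Tfap2c knockdown all lie below 0.

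Compared directly, the Tfap2c knockdown was higher than the Klf5 knockdown in 18 of the 75 and lower in 13 (24% and 17.3%, beside 15.1% and 10.5% of all genes). This lean depended on scaling between the deposited tables. After each library was centred on its median, 14 were higher and 15 lower, beside 1279 and 1472 of all genes. The receptor counts that follow are as deposited. Receptors and co-receptors were higher in 8 of 12 and lower in 1, with Klb (limma difference 1.40, adjusted p = 0.00011), Sdc4 (1.31, adjusted p = 0.0199) and Erbb2 (0.98, adjusted p = 0.00116) among the 8. The call of Sdc4, a syndecan, held in 1 of 4 fits that left out 1 library. Fgf3 was higher by 1.12 (adjusted p = 0.000893). Fgf5 was higher by 1.18, with the limit given above on how it passed the filter. Rras2 was 1.30 log2 units lower (-1.30, adjusted p = 0.000117) and Ier2 1.25 lower (-1.25, adjusted p = 0.00089), whereas Braf, a kinase that Ras activates, was 0.71 higher (adjusted p = 0.00117).

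In the motif knockouts 73 genes of the list were tested, and 17 in Arpc1bE_CdxE1_KO and 28 in CdxE2_KO were called higher, with 0 lower (23.3% and 38.4%, beside 23.2% and 28.5% of all genes). Centring left 1 higher and 0 lower in Arpc1bE_CdxE1_KO, and 3 higher and 3 lower in CdxE2_KO. Sdc4 rose in both: it was at 3.16 and 2.41 in control, 4.62 and 4.72 in Arpc1bE_CdxE1_KO and 4.29 and 4.66 in CdxE2_KO. Its limma adjusted p was 0.00638 and 0.00596 as deposited, and 0.0213 and 0.0269 after centring. In CdxE2_KO the receptor kinase gene Pdgfra was at 3.86 and 3.89 against 2.96 and 3.09 in control (adjusted p = 0.00484, and 0.0421 after centring). Ier2 was at 3.52 and 3.56 against 2.71 and 2.67 (adjusted p = 0.00497, and 0.0412 after centring). Dusp6 and Ccnd1 in CdxE2_KO, higher by 1.15 and 1.17 as deposited (adjusted p = 0.0115 and 0.0128), did not pass after centring (adjusted p = 0.0747 and 0.0826). Leaving out Ctrl replicate 1 or 2 cut the calls of the list in Arpc1bE_CdxE1_KO to 1 each, and leaving out any of the 4 libraries compared left 5 to 8 in CdxE2_KO.

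Genes with the most similar profile over the 10 libraries were looked up for the 6 genes whose group means spanned at least 1 log2 unit. Likeness was the root mean square difference, in log2 units, between deviations from the control mean. Fgf4 was most like Ttbk2 (0.18) and Rwdd4a (0.19), and Fgfr2 like H60b (0.20) and Bhmt (0.21). Grb7 was closest to Tagln2 (0.16) and then to Lasp1 (0.32). Il17rd was like B4galt6 (0.25). For Spred1 these were Fbxo21 and Lonrf3 (0.27 each), and for Dusp16 Ldlrad4 and Rufy2 (0.20 each). Tagln2 and Lasp1, which encode actin-binding proteins, were below their control levels in both knockdowns, as Grb7 was. That likeness follows from how they were chosen. Within the set, Fgfr1 and Spry2 were closest to each other (0.23) and Grb7 and Il17rd farthest apart (2.18). All these distances come from the same 10 libraries and share their scaling.

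The 2 tested protein-coding genes nearest on each side of each of the 10 were also read, leaving out overlapping genes. This choice was made after values had been seen. Their distances ran from 270 bases (Arhgap26 beside Spry4) to 12240286 bases (Gpr180 beside Spry2), so not all are local. Of these 40 neighbours, 0 rose and 1 fell after Klf5 knockdown, which was Erbb2 beside Grb7. After Tfap2c knockdown 4 rose and 6 fell, at the limma threshold used above. Of all genes tested 2.25% rose and 5.27% fell after Klf5 knockdown, and 12.6% and 11.9% after Tfap2c knockdown, so the neighbours' shares lay near those of all genes. Beside Fgfr2, which was 2.05 log2 units lower after Tfap2c knockdown, Nsmce4a was 0.41 higher and passed (limma adjusted p = 0.00681). The other neighbours of Fgfr2, Sec23ip, Wdr11 and Ate1, differed by 0.165, -0.26 and 0.29 and did not pass (adjusted p = 0.335, 0.141 and 0.592).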

How the data were processed

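RNA-seq libraries were made from total RNA of 8-cell embryos with random primers and ribosomal depletion, per the labels' protocols. HISAT2 2.1.0, StringTie 1.3.4, Cufflinks and SAMtools 1.7 were used with build mm10, per the submitters' processing notes. The authors deposited log2 values in 3 tables, 1 for each knockdown and 1 that holds the motif knockouts beside the control. Exact zeros put the added constant at 1, which understates changes of low genes; the kind of abundance is not given in the sources used here and depth is unknown.

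The deposited log2 values of genes that reached 1 linear unit in 2 or more libraries were fitted in R 4.3.3 with limma 3.58.1 (eBayes with trend). A gene was called where its Benjamini-Hochberg adjusted p was under 0.05. Knockdowns were fitted on all 10 libraries (11195 genes), across tables, and motif knockouts on the 6 libraries of their own table (10920 genes). The fit was tested on simulated data. Groups have 2 libraries and the labels name no separate embryo pools, so the p-values reflect only how these libraries vary, which may be technical. The 10 genes, the pathway list and the other lists were chosen with earlier results of these data known. Of the pathway list, up to 3 called genes per role and comparison with the largest absolute difference were named, besides the knockdown targets and the 2 genes most like each gene whose group means span 1 log2 unit; 1 gene of the last kind is not reported here. Fgfr3, Fgfr4 and neighbouring genes were named outside this rule and its counts. Positions and promoter windows are RefSeq's, in GRCm38.p6. A planned comparison of protein sequences was not made. Alternatives were no filter, a filter at 5 units, a constant of 0.1, centring on medians, equal sums, a replicate block, other libraries in the fit, and leaving out each library.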

Additional observations from a re-analysis of the deposited data

How the results depend on the processing

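The counts of genes called depended most on leaving out a library and, in the motif knockouts, on scaling. In the Klf5 knockdown 842 genes and 9 of the pathway list were called; with no filter these were 507 and 4, and without 1 library 211 to 317 and 1 to 3. In the Tfap2c knockdown they were 2749 and 30, and without 1 library 1535 to 1773 and 19 to 24. Between the knockdowns they were 2865 and 31, and without 1 library 1587 to 1785 and 18 to 21. In Arpc1bE_CdxE1_KO they were 2621 and 17, with no filter 1166 and 9, centred 321 and 1, at equal sums 313 and 1, and without 1 library 161 to 2864 and 1 to 14. In CdxE2_KO they were 3270 and 28, with no filter 1858 genes, centred 681 and 6, at equal sums 703 and 7, and without 1 library 514 to 1099 and 5 to 8. Centring moved the higher share of calls from 29.9% to 46.2% in the Klf5 knockdown and from 59.1% to 46.5% between the knockdowns. Of 550 alternative values of the 10 genes, 490 moved by less than the spread between replicates, 60 moved by more, and 0 called values changed sign. The replicate numbers did not pair libraries: deviations of same-numbered libraries correlated at -0.05 to 0.04 over 10 pairs of groups. A replicate block gave 706, 2615, 2735, 2483 and 3087 genes in the order above. The depth behind these values is unknown, so no limit of detection is given, and the cause of these changes was not tested.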
